A study of Mus musculus with 35 samples.

Results

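Dopamine receptors and the signalling genes that typify striatal neurons were followed through RNA-seq libraries of the mouse amygdala. The set was chosen by name and held 9 of the 52636 genes in the count files: the receptor genes Drd1, Drd2, Drd3 and Drd5, the adenosine receptor gene Adora2a, the signalling genes Rgs9 and Pde10a, and the dopamine genes Th and Slc6a3. Each symbol matched 1 Ensembl gene, and all 9 had counts in at least 1 library. Cells of the basolateral amygdala had been cut out by laser capture from an anterior and a posterior portion in female mice of the inbred strain C57BL/6J and the hybrid B6D2F1N, after a cognitive judgement bias test. Mice of each strain lived in standard housing (labelled control environment) or in enriched housing. Enriched mice had access to a playground for 1 h per day from postnatal day 77. The labels also call some mice optimist or pessimist by that test. All optimists lived in standard housing, and all pessimists but B6D2F1N standard mouse 1 in enriched housing. Housing and this label cannot be fully told apart, and the comparisons did not use the label. Training began on postnatal day 70 and lasted 37 to 90 days depending on the mouse, followed by 5 days of testing, so that the mice were not all of one age at collection. The 35 libraries came from 19 mice, 16 of which had a library of each portion. Anterior groups held 4 standard and 2 enriched C57BL/6J mice and 5 standard and 5 enriched B6D2F1N mice. Posterior groups held 4 standard and 4 enriched C57BL/6J mice and 5 standard and 6 enriched B6D2F1N mice. The portions are named as the labels name them. The bregma ranges in the study's methods put the posterior portion in front of the anterior one, and which of these holds was not tested.

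Dopamine acts through 2 classes of G protein-coupled receptors. Receptors of the D1 class (Drd1, Drd5) raise cyclic AMP, and receptors of the D2 class (Drd2, Drd3) lower it. In the striatum, Drd1 marks the direct-pathway projection neurons, and Drd2 and Adora2a mark the indirect-pathway ones, while Pde10a, which breaks down cyclic nucleotides, and Rgs9, which shortens G protein signals, are rich in both. In the amygdala the central nucleus and the intercalated cell clusters also hold Drd1 and Drd2 neurons. Th encodes the enzyme that limits dopamine synthesis, and Slc6a3 encodes the dopamine transporter. The cell bodies of the dopamine neurons that reach the amygdala lie in the midbrain, so little Th or Slc6a3 mRNA is made locally.

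Reads counted on genes ranged from 16938534 to 27352623 per library. At this depth 3 counts corresponded to 0.109 to 0.173 CPM (counts scaled to a common library size with TMM factors over all libraries), and lower values are not told apart from 0. In bulk tissue, fewer cells of a type and less RNA per cell cannot be told apart. The labelled tissue was checked on excitatory markers: Slc17a7, a glutamate transporter gene, was between 72.9 and 888 CPM. Rspo2, a marker of basolateral neurons, ranged from 0.0427 CPM, not told apart from 0, to 310 CPM. Its lowest value was in the posterior library of B6D2F1N standard mouse 4, which also held the highest Adora2a and Drd2 values. The summed 6 excitatory genes, led by Camk2a, were at 2895 CPM there, against a median of 2377 CPM. Which cells that library held was not tested. Markers of other tissues were raised in single libraries, 3 of which were left out in alternative fits. The anterior library of C57BL/6J enriched mouse 1 held the highest value of 6 of the 15 striatal projection neuron genes, among them Gpr6 (25.5 CPM) and Serpina9 (18.8 CPM). The posterior library of C57BL/6J enriched mouse 2 held the highest value of 5 of the 12 midbrain dopaminergic genes, among them Chrna6 (10.5 CPM) and Chrnb3 (11.0 CPM), nicotinic receptor subunits of dopamine neurons. The anterior library of B6D2F1N standard mouse 3 carried hypothalamic transcripts, with 3933 CPM of Hcrt and 2393 CPM of Pmch. Also raised, and kept in those fits, were the posterior libraries of B6D2F1N standard mouse 4, with the highest sum of the 15 striatal genes (802 CPM, median 355 CPM), and of B6D2F1N standard mouse 2, second in the sum of the hypothalamic genes (792 CPM, median 8.88 CPM) and of the midbrain genes (321 CPM, median 139 CPM). In the posterior library of B6D2F1N standard mouse 2, Aldh1a1 alone gave 205 CPM of the midbrain sum. Th was at 3.35 CPM and Slc6a3 at 0 counts there. The libraries of B6D2F1N standard mouse 1 had 0 counts of Xist in both portions, against 1191 to 4831 counts in all others, and no library had more than 1 count over 4 genes of the Y chromosome.

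In the values below, Drd1 was called between the portions of 1 strain, a call not kept in several alternative fits. A relation of Drd2 with striatal markers was called under alternative settings and not under the main one. Th and Slc6a3 were near 0 outside single libraries. Promoters of these 4 genes are shown because the values below turn on them. Each runs from 250 bases before to 50 bases after a transcription start in RefSeq (GRCm38.p6), 5′ to 3′ on the gene's strand. Capitals mark the GC box, spelled GGGCGG, or the cyclic AMP response element (CRE), spelled TGACGTCA, on either strand. The TATA box motif was searched as TATAAA. The E box was searched as CAGCTG. Matches of the CRE and the GC box do not overlap.
Drd1, chr13:54055609-54055908, minus strand: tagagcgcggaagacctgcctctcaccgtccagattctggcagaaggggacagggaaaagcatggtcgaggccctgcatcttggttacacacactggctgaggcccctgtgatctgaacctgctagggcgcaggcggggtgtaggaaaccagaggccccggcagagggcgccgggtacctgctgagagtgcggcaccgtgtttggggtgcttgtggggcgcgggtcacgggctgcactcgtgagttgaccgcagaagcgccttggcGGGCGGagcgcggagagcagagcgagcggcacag
Drd2, chr9:49340153-49340452, plus strand: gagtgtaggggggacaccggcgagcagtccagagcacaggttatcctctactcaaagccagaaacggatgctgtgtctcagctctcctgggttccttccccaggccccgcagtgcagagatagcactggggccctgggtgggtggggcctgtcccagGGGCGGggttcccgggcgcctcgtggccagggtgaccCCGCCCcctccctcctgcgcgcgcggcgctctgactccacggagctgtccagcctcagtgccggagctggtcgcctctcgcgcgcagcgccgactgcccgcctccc
Th, chr7:142899946-142900245, minus strand: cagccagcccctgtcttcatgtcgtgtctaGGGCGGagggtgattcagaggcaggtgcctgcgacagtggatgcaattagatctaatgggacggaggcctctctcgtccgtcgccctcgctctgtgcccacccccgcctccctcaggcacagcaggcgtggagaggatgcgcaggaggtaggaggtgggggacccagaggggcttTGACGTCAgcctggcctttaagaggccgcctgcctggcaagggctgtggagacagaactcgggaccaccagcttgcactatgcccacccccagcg
Slc6a3, chr13:73536497-73536796, plus strand: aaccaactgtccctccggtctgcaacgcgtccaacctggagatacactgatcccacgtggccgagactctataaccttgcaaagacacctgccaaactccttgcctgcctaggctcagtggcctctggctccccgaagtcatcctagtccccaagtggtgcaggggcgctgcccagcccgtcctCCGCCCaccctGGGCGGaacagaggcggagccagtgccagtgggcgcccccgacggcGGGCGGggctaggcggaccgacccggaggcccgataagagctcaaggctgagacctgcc
The GC box was in each of these 4, with 1 match in Drd1, 2 in Drd2, 3 in Slc6a3 and 1 in Th, and 35.66% of 32851 RefSeq promoters of this length hold it. The CRE was found in the Th promoter, 45 bases before the start, and in 1.79% of all promoters. The TATA motif is in 13.62% and the E box in 16.3% of them, and among the members both were found in Rgs9 and the E box in 1 promoter of Pde10a. Promoters of 8 members were in the table, and none of these motifs was in that of Drd3. A match is a run of letters only, and occupancy was not measured.

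Levels can be compared between genes once divided by exon length. Mean CPM per kb of exon over the 35 libraries was 13.3 ± 29.9 (SD, n = 35) for Adora2a, 4.68 ± 2.47 for Drd1, 3.30 ± 1.11 for Pde10a, 1.63 ± 2.73 for Drd2 and 1.44 ± 1.27 for Rgs9. It was 1.20 ± 3.24 for Th, 1.05 ± 4.93 for Slc6a3, 0.606 ± 0.599 for Drd5 and 0.172 ± 0.365 for Drd3. The Drd5 length includes 1531 of 3152 exon bases shared with another gene, whose reads cannot be assigned. Its value per kb may therefore be too low, and its place in the order is uncertain. The order by the median differed, with Drd1 first (4.55 CPM per kb), Pde10a next (3.36) and Adora2a at 2.37, since a few libraries held most of the Adora2a signal. Drd1 and Pde10a were above 1 CPM in all 35 libraries, and Adora2a and Rgs9 were in 34. Drd2 reached 1 CPM in 25 libraries, Drd5 in 17, Th in 16, Slc6a3 in 11 and Drd3 in 3. Coefficients of variation ran from 33.4% for Pde10a and 52.7% for Drd1 to 167% for Drd2, 224% for Adora2a, 269% for Th and 468% for Slc6a3. Thus the members fell between a pair of genes found in every library and genes whose sum rested on single libraries: 4 libraries carried 72.0% of the summed Adora2a CPM, and 1 library carried 79.5% of the summed Slc6a3 CPM. When the 8 groups were ordered by mean CPM, the ranges of neighbouring groups overlapped for all 7 neighbour pairs of every member. Ordering by mean puts the closest groups side by side, so this overlap does not speak to groups farther apart. For Drd5, the lowest C57BL/6J enriched posterior library (2.53 CPM) lay above the highest C57BL/6J standard posterior one (0.701 CPM). How often neighbours overlap among all genes was not counted.

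**Figure D1:**
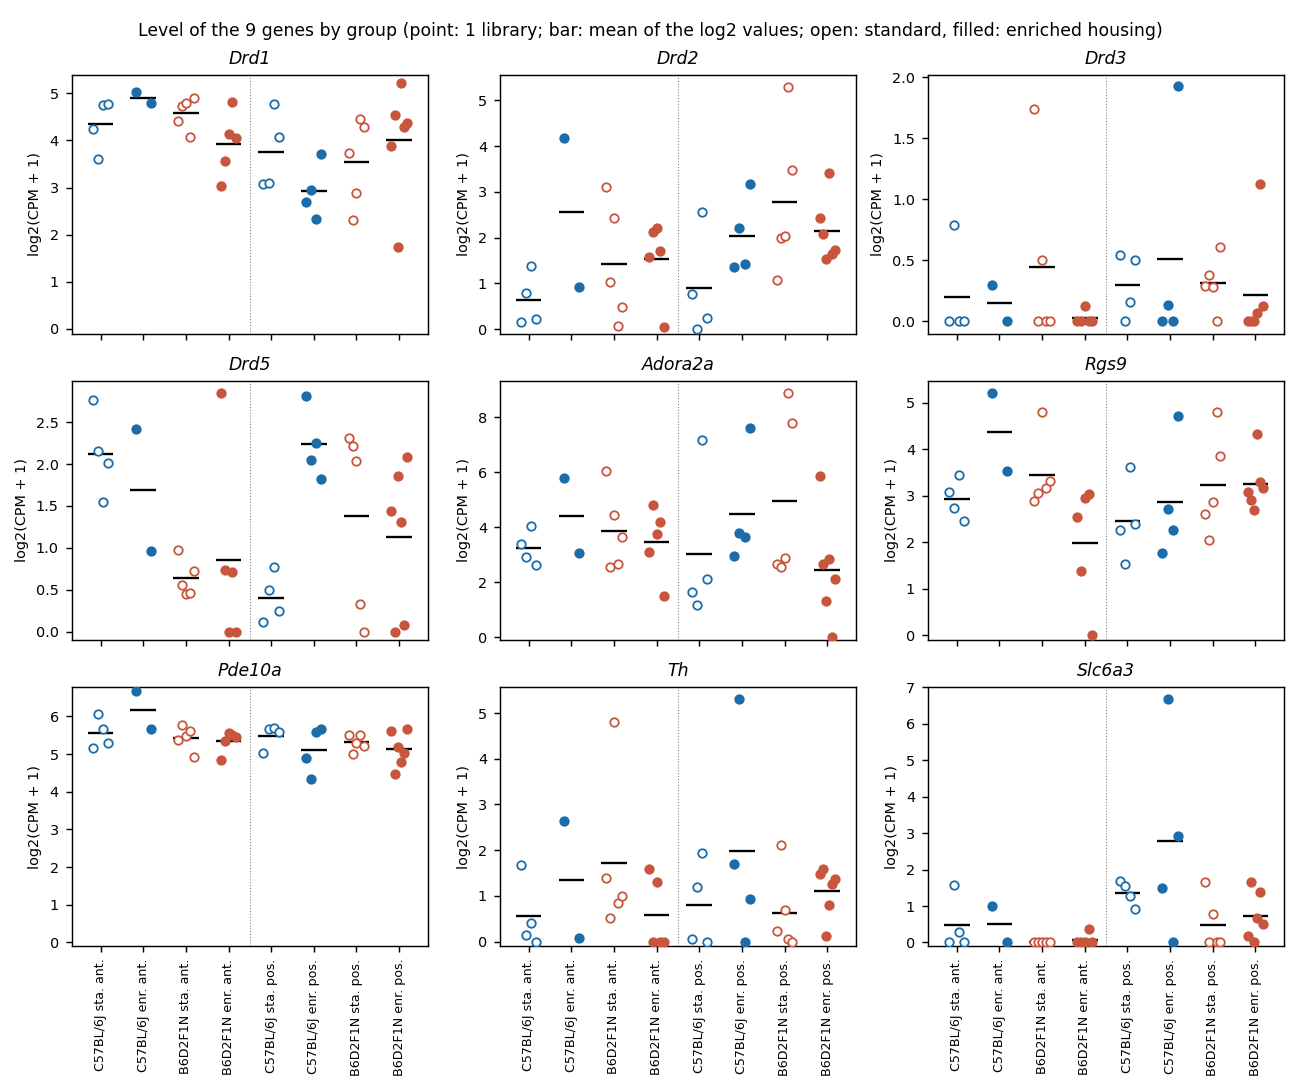
Level of each of the 9 genes, as log2(CPM + 1), in the 8 groups of strain, housing and portion (sta., standard; enr., enriched; ant., anterior; pos., posterior). Points are libraries, open for standard and filled for enriched housing, blue for C57BL/6J and red for B6D2F1N, and bars are means of the log2 values; Pde10a is even across groups, while Adora2a, Th and Slc6a3 show single high libraries.

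Drd1, the D1 receptor gene on chromosome 13 (chr13:54051183-54055705, minus strand, GRCm38), was the most even of the receptor genes. The group means were 29.1 ± 3.36 CPM (SD, n = 2) in C57BL/6J enriched anterior, 23.5 ± 5.37 (n = 5) in B6D2F1N standard anterior and 20.4 ± 7.27 (n = 4) in C57BL/6J standard anterior libraries. Then came B6D2F1N enriched posterior at 18.8 ± 11.1 (n = 6), B6D2F1N enriched anterior at 15.4 ± 7.47 (n = 5), C57BL/6J standard posterior at 14.3 ± 8.93 (n = 4), B6D2F1N standard posterior at 12.4 ± 7.35 (n = 5) and C57BL/6J enriched posterior at 7.08 ± 3.52 (n = 4). The posterior group of enriched C57BL/6J mice had the lowest mean, and its libraries lay between 4.03 and 12.1 CPM. The highest single value, 36.4 CPM, was in the posterior library of B6D2F1N enriched mouse 4, which also held the highest sum of the 5 intercalated cell markers (3071 CPM, mostly Penk at 2663 CPM).

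Drd5, the D5 receptor gene (chr5:38319367-38322518, plus strand), has a single exon, and 1531 of its 3152 exon bases are shared with Gm26560 on the opposite strand. The kit used does not mark strand, so reads from the shared bases cannot be assigned to either gene; Gm26560 itself was at 0 counts in 32 of 35 libraries and at most 0.524 CPM. Drd5 group means were 3.88 ± 1.53 CPM (n = 4) in C57BL/6J enriched posterior, 3.56 ± 1.62 (n = 4) in C57BL/6J standard anterior and 2.65 ± 2.41 (n = 2) in C57BL/6J enriched anterior libraries. They were 2.2 ± 1.92 (n = 5) in B6D2F1N standard posterior, 1.52 ± 1.32 (n = 6) in B6D2F1N enriched posterior, 1.51 ± 2.66 (n = 5) in B6D2F1N enriched anterior, 0.570 ± 0.253 (n = 5) in B6D2F1N standard anterior and 0.344 ± 0.274 (n = 4) in C57BL/6J standard posterior libraries. The lowest and the highest mean thus belonged to the same strain and portion in the 2 housings.

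Drd2, the D2 receptor gene (chr9:49340627-49408177, plus strand), ranged from 0 to 38.4 CPM. Its group means were 11.1 ± 15.6 CPM (n = 5) in B6D2F1N standard posterior and 9.02 ± 11.5 (n = 2) in C57BL/6J enriched anterior libraries, each raised by 1 library, and lay between 0.654 ± 0.689 (n = 4, C57BL/6J standard anterior) and 3.93 ± 2.96 (n = 6, B6D2F1N enriched posterior) in the other 6 groups. Drd3, a receptor gene of the same class found mainly in the ventral striatum and the islands of Calleja (chr16:43754026-43822932, plus strand), was at 0 counts in 18 libraries and at most 3 counts in 23. Its highest values were 2.80 CPM in the posterior library of C57BL/6J enriched mouse 4 and 2.33 CPM in the anterior library of B6D2F1N standard mouse 1, and all group means were at or below 0.723 ± 1.38 CPM (n = 4, C57BL/6J enriched posterior).

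Adora2a, the adenosine receptor gene of striatal indirect-pathway neurons (chr10:75316877-75334784, plus strand), had the widest range of the receptor genes, from 0 to 473 CPM around a median of 7.27. In the posterior libraries of B6D2F1N standard mice 1 to 5 it was at 5.37, 4.84, 6.37, 473 and 219 CPM. In those of C57BL/6J standard mice 1 to 4 it was at 2.15, 1.26, 143 and 3.39 CPM, and in those of C57BL/6J enriched mice 1 to 4 at 6.70, 12.8, 11.5 and 195 CPM. So 4 of 19 posterior libraries, in 3 of the 4 groups, stood at 143 CPM or more, and the next posterior library, of B6D2F1N enriched mouse 1, was at 57.5 CPM. Anterior libraries reached at most 65.6 CPM. Group means ran from 9.14 ± 4.53 CPM (n = 4) in C57BL/6J standard anterior to 142 ± 207 (n = 5) in B6D2F1N standard posterior libraries, and the SD exceeded the mean in 6 of the 8 groups.

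Rgs9 (chr11:109225355-109298129, minus strand) was highest in the anterior library of C57BL/6J enriched mouse 1 (36.2 CPM), followed by the anterior library of B6D2F1N standard mouse 3 and the posterior library of B6D2F1N standard mouse 4 (26.8 and 26.7 CPM). Its group means ran from 4.10 ± 3.19 CPM (n = 5) in B6D2F1N enriched anterior to 23.3 ± 18.1 CPM (n = 2) in C57BL/6J enriched anterior libraries. Pde10a (chr17:8525372-8986648, plus strand) stayed between 19.4 and 65.9 CPM in 34 libraries and reached 100 CPM in that same anterior library of C57BL/6J enriched mouse 1. The mean of that group was 75.1 ± 35.9 CPM (n = 2), and the means of the other 7 groups lay between 35.5 ± 11.5 CPM (n = 6, B6D2F1N enriched posterior) and 47.3 ± 14.0 CPM (n = 4, C57BL/6J standard anterior).

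**Figure D2:**
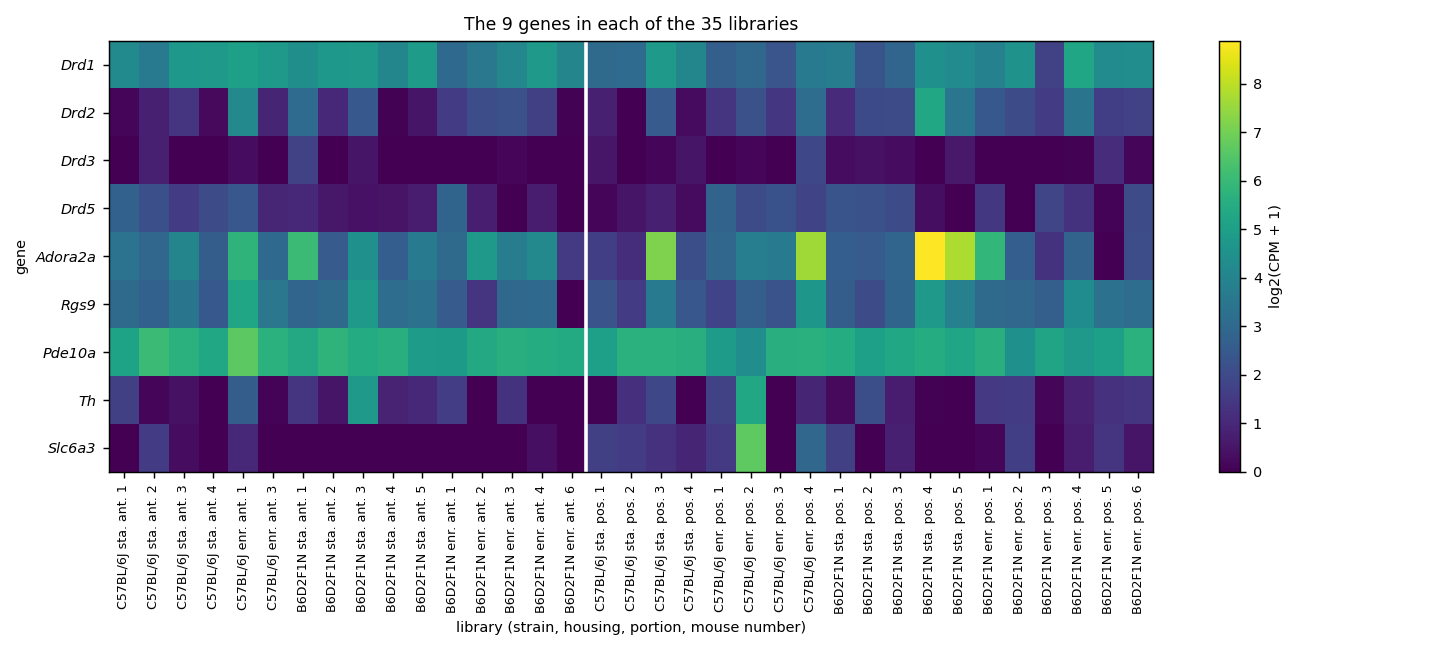
Each of the 9 genes (rows) in each of the 35 libraries (columns, named by strain, housing, portion and mouse number), coloured by log2(CPM + 1), with anterior libraries left of the white line. Drd1 and Pde10a are present throughout, Adora2a and Drd2 rise together in a few columns, and Slc6a3 and Th stand out in 1 posterior column.

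Th (chr7:142892752-142931128, minus strand) and Slc6a3 (chr13:73536747-73578672, plus strand) were high in few libraries and shared 1 of them. In the posterior libraries of C57BL/6J enriched mice 1 to 4, Th was at 2.26, 38.5, 0 and 0.914 CPM and Slc6a3 at 1.83, 101, 0 and 6.61 CPM. The library of mouse 2 thus held the highest value of both genes, with 2085 counts of Slc6a3 and 794 of Th. It is also the one with the raised midbrain list, and Ddc, the next enzyme of dopamine synthesis, was at 42.5 CPM there against a median of 18.9. Of the transcription factors that define midbrain dopamine neurons, En1 was at 0.825 CPM in that library. Foxa2 (0.146 CPM) and Pitx3 (0.0485 CPM) were at or below the value of 3 counts there. Pitx3, Foxa1 and En2 had their highest values in other libraries (0.174, 1.01 and 0.602 CPM). Slc18a2, the vesicular monoamine transporter gene, was at 23.0 to 90.6 CPM in all libraries and did not set the library of mouse 2 apart (71.6 CPM). The other library high in Th, the anterior one of B6D2F1N standard mouse 3, had 26.7 CPM of Th with 0 counts of Slc6a3, and it is the one with Hcrt and Pmch. Dbh, which marks noradrenaline neurons, was at most 3.84 CPM in any library, and Phox2a was at 0 in all 35. In the remaining libraries Th was at most 5.19 CPM and Slc6a3 at most 6.61 CPM. The part of fibre, border or neighbouring cells in these values was not tested.

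The first comparison asked how the portions differ within a mouse. In the 6 C57BL/6J mice with both portions, Drd1 was lower in the posterior library. Anterior and posterior values were 17.9 and 7.43 CPM in standard mouse 1, 11.2 and 7.58 in mouse 2, 26.0 and 26.3 in mouse 3, and 26.4 and 15.9 in mouse 4. They were 31.5 and 5.44 CPM in enriched mouse 1 and 26.7 and 4.03 in enriched mouse 3. The posterior value was lower in 5 of 6 mice, and the ranges of the portions overlapped. The log2 fold change was -1.28 (SE 0.34, adjusted p = 0.0426, edgeR quasi-likelihood F test with the mouse as a block), and Drd1 was the 1 member of 9 called, against 3.64% of the 25751 genes tested. The call was not kept without the block (-1.06, adjusted p = 0.188), with edgeR's expression filter (adjusted p = 0.0782), or without standard mouse 1 (adjusted p = 0.121), standard mouse 4 (0.0862), enriched mouse 3 (0.117) or enriched mouse 1 (0.160), whose anterior library is the one raised in striatal genes. With each mouse left out the log2 fold change stayed between -1.54 and -0.98, and it was -1.01 without enriched mouse 1. Drd1 in that library was 31.5 CPM, the highest of the 6 anterior values.

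Rgs9 did not pass in these mice. Its posterior value was below the anterior one in 5 of 6 mice, with a log2 fold change of -1.23 (SE 0.45, edgeR adjusted p = 0.186), and without enriched mouse 1 of -0.76 (SE 0.42, adjusted p = 0.460). The anterior values ran from 4.49 to 36.2 CPM and the posterior ones from 1.91 to 11.3. Slc6a3 had the opposite sign at values near 0, with means of 0.535 CPM in anterior and 1.37 CPM in posterior libraries (log2 fold change 2.59, SE 1.28, adjusted p = 0.402). Fitted log2 fold changes were -1.93 (SE 0.99) for Drd5, -0.84 (SE 0.62) for Adora2a, -0.34 (SE 0.23) for Pde10a, -0.22 (SE 1.00) for Drd2, -0.11 (SE 1.20) for Th and 1.28 (SE 2.64) for Drd3, none of which passed. Drd5 fell in every standard mouse, from 1.92 to 5.79 CPM in anterior to 0.0826 to 0.701 CPM in posterior libraries. It rose in enriched mouse 1 (4.35 and 6.05 CPM) and enriched mouse 3 (0.952 and 3.78 CPM). A dependence of this difference on housing was not tested. Without enriched mouse 1 the Drd2 value was 0.52 (SE 1.26) and that of Th 0.52 (SE 2.46), so the sign of both rested on that mouse. For Adora2a the mean CPM was higher in the posterior libraries (27.9 against 16.4) although the fitted change within mice was negative, since standard mouse 3 alone reached 143 CPM.

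None of the 9 members was called between the portions in the 10 B6D2F1N mice, where 4.01% of 27761 genes were called and the median change of all genes was 0.15 on the log2 scale; 1 member had an unadjusted p under 0.05 by edgeR, and DESeq2 called 0. Slc6a3 came nearest. It was at 0 counts in 9 of 10 anterior libraries and at 0.288 CPM in the other, and the posterior libraries of the same mice ranged from 0 to 2.18 CPM. The posterior value was higher in 6 mice and equal at 0 in 4, with a fitted log2 fold change of 4.78 (SE 1.42, edgeR adjusted p = 0.0837). Without standard mouse 3 it was 4.37 (SE 1.57, adjusted p = 0.164), and DESeq2 gave 3.05 (SE 1.96, unadjusted p = 0.159). At most 2.18 CPM was involved in any library. Drd1 was lower in 5 mice and higher in 5 (-0.52, SE 0.38, adjusted p = 0.554). Rgs9 had a positive change of 0.67 (SE 0.59, adjusted p = 0.642). The difference of the portion effect between strains was tested as an interaction, in which edgeR called 0% of 29437 genes and 0 members, with 871 genes and 1 member at an unadjusted p under 0.05; the interaction for Rgs9 was 1.89 (SE 0.86, unadjusted p = 0.0376, adjusted p = 1), without the mice of the 3 libraries left out 1.75 (SE 0.85, unadjusted p = 0.0515), and for Drd1 0.76 (SE 0.58, adjusted p = 1). A portion effect on Drd1 was thus called in one strain only, and a difference between the strains was not shown.

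**Figure D3:**
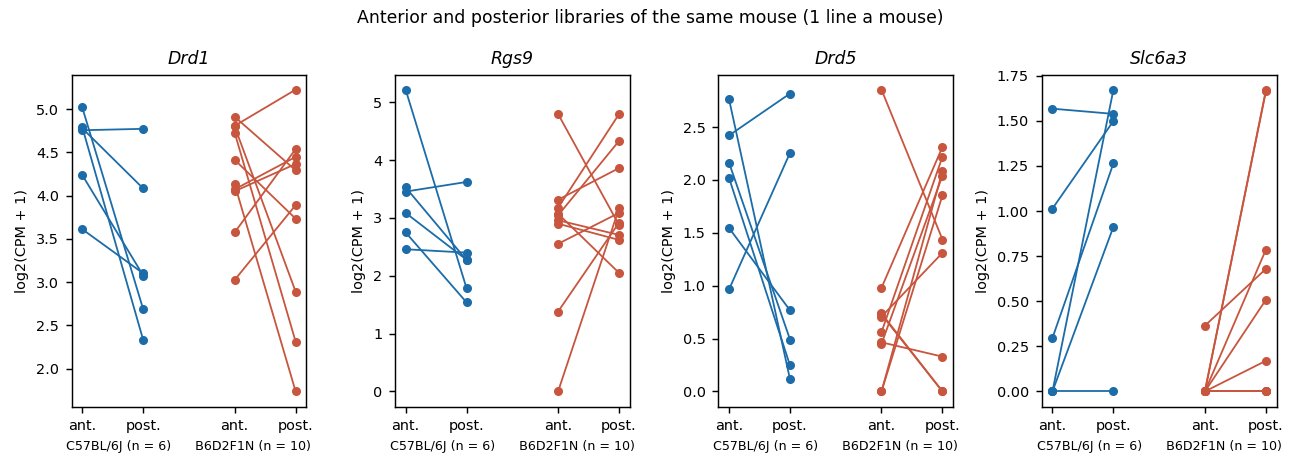
Drd1, Rgs9, Drd5 and Slc6a3, as log2(CPM + 1), in the anterior and posterior library of each mouse, joined by a line, for 6 C57BL/6J (blue) and 10 B6D2F1N mice (red). Drd1 falls in 5 of 6 C57BL/6J mice. Lines of Drd5 run in both directions in each strain, and in C57BL/6J mice they fall in the standard and rise in the enriched mice.

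The strains were compared within each housing and portion, and by edgeR no member passed in any of the 4 comparisons. At an unadjusted p under 0.05 there were 3 members in standard anterior, 2 in standard posterior, 2 in enriched anterior and 3 in enriched posterior libraries, and DESeq2 called 1, 0, 0 and 0. All genes called amounted to 0.37% of 24305 in standard anterior, 0.373% of 25171 in standard posterior, 0.0639% of 23459 in enriched anterior and 0.394% of 25640 in enriched posterior libraries. Drd5 in standard anterior libraries was nearest. It was at 5.79, 3.48, 1.92 and 3.05 CPM in C57BL/6J mice 1 to 4 and at 0.971, 0.475, 0.366, 0.38 and 0.656 CPM in B6D2F1N mice 1 to 5, so the groups did not overlap. Of all genes tested, 1.19% were lower in every B6D2F1N library. The log2 fold change was -2.63 (SE 0.63, edgeR adjusted p = 0.134), and it stayed between -2.89 and -2.28 with each mouse left out. DESeq2, which called 1.2% of genes in this comparison, called Drd5 (adjusted p = 0.000612), while 1 fit over the 4 anterior groups gave an adjusted p of 0.677. The summed oligodendrocyte markers, the list with the highest rho with Drd5 over all 35 libraries, overlapped between these groups (7786 to 10577 CPM in C57BL/6J and 5597 to 14351 CPM in B6D2F1N mice).

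Th in standard anterior libraries differed by 3.22 (SE 1.33, edgeR adjusted p = 0.539), and by 0.51 (SE 1.23, adjusted p = 0.987) without B6D2F1N standard mouse 3, the library with hypothalamic transcripts. Slc6a3 was at 0 counts in all 5 B6D2F1N libraries and at 0, 1.96, 0.228 and 0 CPM in the C57BL/6J ones (adjusted p = 0.522), so that 1 library, of standard mouse 2, held nearly all of the counts.

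Between the strains in standard posterior libraries, Drd5 had the opposite sign, with 0.344 ± 0.274 CPM (n = 4) in C57BL/6J and 2.2 ± 1.92 CPM (n = 5) in B6D2F1N mice (log2 fold change 2.67, SE 1.19, edgeR adjusted p = 0.475). Drd2 there differed by 2.91 (SE 1.21, adjusted p = 0.470), on the B6D2F1N values of 1.12, 2.96, 3.08, 38.4 and 10.1 CPM against 0.702, 0, 4.91 and 0.186 CPM. Without B6D2F1N standard mouse 4, the library highest in the striatal sum, it was 1.58 (SE 1.13, adjusted p = 0.734). In enriched anterior libraries, Rgs9 and Pde10a were higher in both C57BL/6J libraries than in all 5 B6D2F1N ones, a pattern shared by 4.9% of genes tested, and neither was called (log2 fold changes -2.50, SE 1.08, and -0.88, SE 0.31, edgeR adjusted p = 1.00 for each). One of these C57BL/6J libraries is that of enriched mouse 1, without which the values were -1.32 (SE 1.59) and -0.26 (SE 0.39). In enriched posterior libraries, Drd1 differed by 1.41 (SE 0.53, adjusted p = 0.503). Slc6a3 differed by -5.08 (SE 1.31, adjusted p = 0.174), and by -1.77 (adjusted p = 0.776) without C57BL/6J enriched mouse 2. Th turned from -3.04 (SE 1.12, adjusted p = 0.49) to 0.28 (adjusted p = 0.978) without that mouse, so 1 library set its sign.

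Housing was compared within each strain and portion. Among C57BL/6J posterior libraries, Drd5 was at 0.0826, 0.405, 0.701 and 0.186 CPM in standard mice 1 to 4 and at 6.05, 3.16, 3.78 and 2.53 CPM in enriched mice 1 to 4. Every enriched library was above every standard one, as for 3% of the genes tested. The log2 fold change was 3.46 (SE 0.77, edgeR adjusted p = 0.182), between 3.14 and 4.07 with each mouse left out. edgeR called 0.0163% of 24526 genes and 0 members here, with 4 members at an unadjusted p under 0.05, and DESeq2 called 1.56% of genes, Drd5 among them (adjusted p = 0.000424). The oligodendrocyte list moved with this difference: its summed level was 7790 to 12349 CPM in the standard and 17528 to 27234 CPM in the enriched libraries, and Mbp, the myelin basic protein gene, was 1 of the 4 genes edgeR called (2121 and 8311 CPM, log2 fold change 1.97, SE 0.27, adjusted p = 0.0365). Its part in the Drd5 difference was not tested. Drd1 differed by -1.02 in the same libraries (SE 0.46, adjusted p = 0.480). Slc6a3 and Th differed by 4.11 (SE 1.3, adjusted p = 0.351) and 3.32 (SE 1.5, adjusted p = 0.480), and without enriched mouse 2 they were 0.82 (SE 1.10, adjusted p = 0.929) and 0.03 (SE 1.57, adjusted p = 1.00).

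In C57BL/6J anterior libraries, edgeR called 0% of 22865 genes, with 1417 genes and 3 members at an unadjusted p under 0.05, and DESeq2 called 100 genes and 0 members. Drd1 and Rgs9 were higher in both enriched libraries than in all 4 standard ones, as were 9.09% of the genes tested. The differences were 3.75 for Drd2 (SE 1.06, adjusted p = 0.598), 1.74 for Rgs9 (SE 0.48, adjusted p = 0.598), 1.74 for Adora2a (SE 0.61, adjusted p = 0.748) and 0.49 for Drd1 (SE 0.35, adjusted p = 0.868). With only enriched mouse 3 left, whose spread was taken to be that of the standard mice, Adora2a turned to -0.37 (adjusted p = 0.985), and Drd2 and Rgs9 were at 0.42 and 0.57. In enriched mice 1 and 3 Drd2 was at 17.1 and 0.902 CPM and Adora2a at 54.4 and 7.27 CPM, so these differences rest on mouse 1, whose library held the highest value of 6 of the 15 striatal genes. In B6D2F1N mice, edgeR called 0% of 24639 anterior and 0% of 26028 posterior genes, with 1553 and 1716 genes and 1 member each at an unadjusted p under 0.05, and DESeq2 called 8 and 13 genes and 0 members. Drd3 was at most 2 counts in the enriched anterior libraries and was at 2.33, 0, 0.418, 0 and 0 CPM in standard mice 1 to 5, which gave an adjusted p of 0.770. The fitted value was -2.2 (adjusted p = 1.00) without standard mouse 1, which held 48 counts. Adora2a had the lower mean in enriched posterior libraries (12.3 ± 22.3 CPM, n = 6, against 142 ± 207, n = 5; log2 fold change -3.50, SE 1.32, adjusted p = 0.752), on the 2 high standard libraries of mice 4 and 5; it was -2.27 (SE 1.28, adjusted p = 0.890) without mouse 4. The interaction of strain and housing called 0% of 26353 genes in anterior and 0% of 27871 in posterior libraries by edgeR, with 1576 and 2335 genes and 5 and 2 members at an unadjusted p under 0.05. In anterior libraries the 5 were Drd1, Drd2, Adora2a, Rgs9 and Th, at -1.12, -4.06, -2.49, -3.27 and -5.15. Without C57BL/6J enriched mouse 1 and B6D2F1N standard mouse 3, which left 1 enriched C57BL/6J library, they were at -0.90, -0.42, -0.33, -1.48 and 3.16 and none had an unadjusted p under 0.05. The interaction of Drd5 in posterior libraries was -4.00 (SE 1.56, adjusted p = 0.50).

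**Figure D4:**
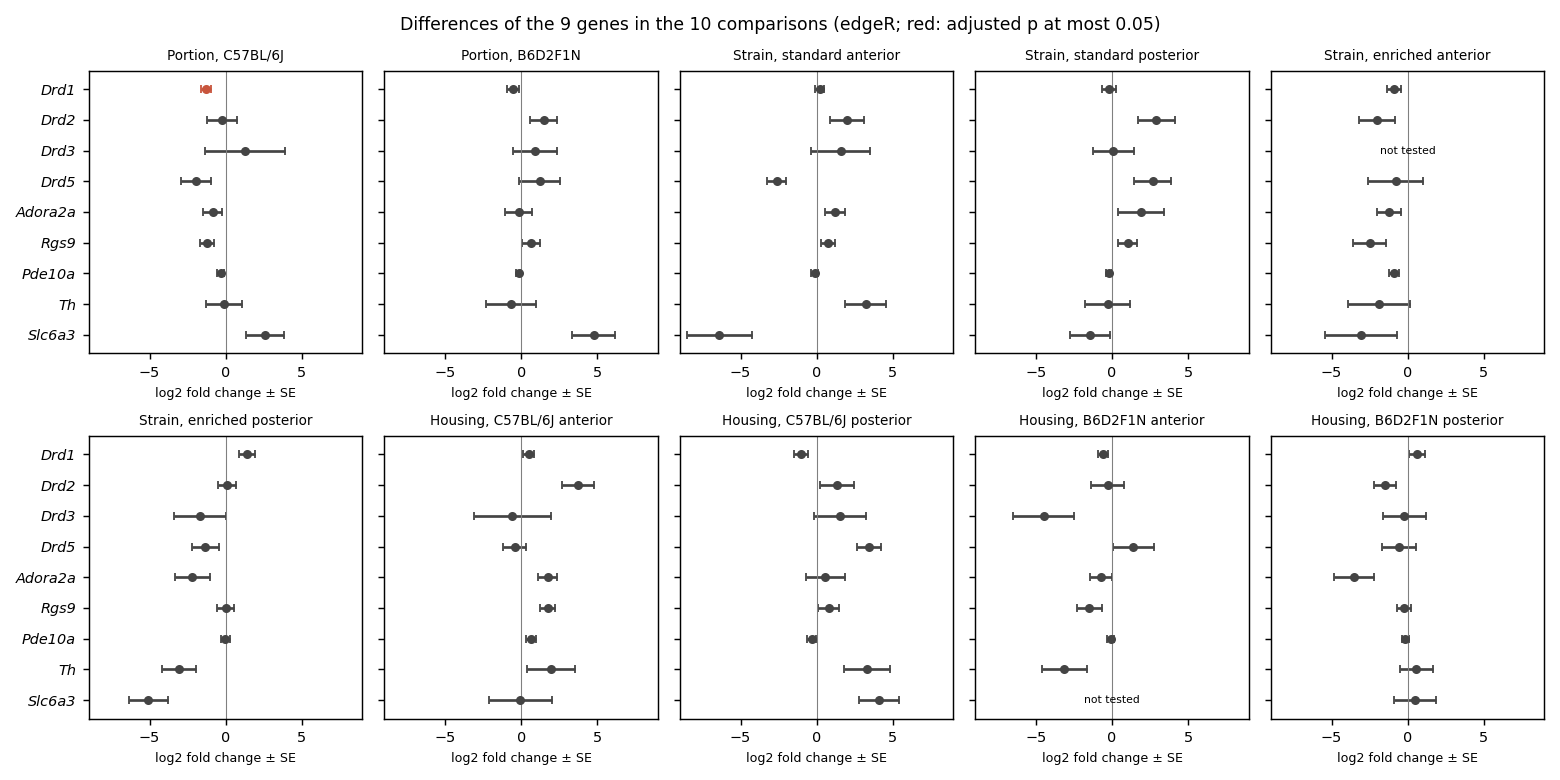
Log2 fold changes with their standard errors (bars) for the 9 genes in the 10 comparisons, from edgeR; positive values are higher in posterior, B6D2F1N or enriched libraries. Red marks an adjusted p of at most 0.05, which is reached by Drd1 between the portions of C57BL/6J mice; Drd3 and Slc6a3 had under 10 counts in 1 comparison each.

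The labelled amygdala borders the striatum, and the next comparison asked which members varied with striatal tissue in single libraries. No library lacked the striatal list. The sum of its 15 genes was dominated by Ano3 (mean 200 CPM) and Rxrg (44.5 CPM), which were found in all libraries, and the other 13 genes summed to between 37.4 and 359 CPM. The 3 list genes at 0 counts in the most libraries were Ido1 (17 of 35), Serpina9 (14) and Sh3rf2 (13), and in 6 libraries each of them had at most 3 counts. These 3 genes are scarce (means of 0.579, 1.68 and 1.09 CPM), so low counts of them do not show that striatal tissue was absent. Among the 6, the anterior library of B6D2F1N enriched mouse 2 had 186 CPM over the other list of 13 genes. It also held the highest Adora2a and Drd2 values of the 6. In those 6 libraries, chosen after the values were seen, Drd1 was at 4.03 to 22.2 CPM (median 13.4, against 18.5 in the other 29) and Pde10a at 21.1 to 49.9 CPM (median 43.4, against 43.2). Rgs9 was at 1.60 to 7.49 CPM (median 4.05, against 7.40), Adora2a at 1.26 to 26.8 CPM (median 7.37, against 7.27) and Drd2 at 0 to 3.34 CPM (median 0.930, against 2.24). The 6 were 2 anterior and 4 posterior libraries, so pooled medians mix the portions. By portion, the Drd1 medians were 14.4 against 25.7 CPM in anterior and 11.8 against 12.3 CPM in posterior libraries. The libraries with Adora2a above 57.5 CPM or Drd2 above 4.91 CPM were not among the 6.

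**Figure D5:**
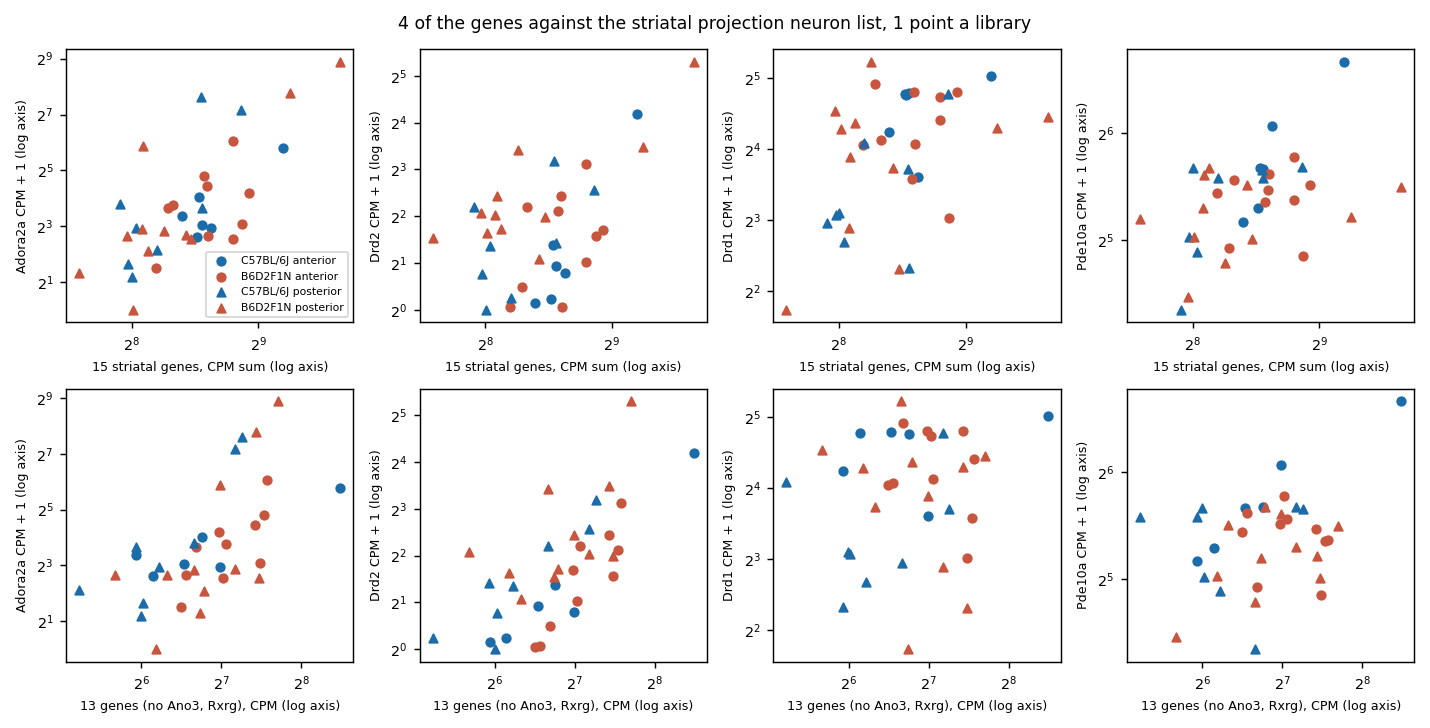
Adora2a, Drd2, Drd1 and Pde10a (CPM + 1, log axis) against the summed CPM of the striatal projection neuron list (log axis), with all 15 genes in the upper and 13 genes in the lower row; circles are anterior and triangles posterior libraries, blue C57BL/6J and red B6D2F1N. Adora2a and Drd2 rise with the list of 13 genes in the lower row, where Drd1 (r of -0.0586 and 0.0560) does not.

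Correlations of the members with the striatal sum were computed over the 16 mice with an anterior and the 19 with a posterior library, for 18 relations in all. With the list of 15 genes, Adora2a in posterior libraries was the one relation past the threshold by Pearson's r (0.757, permutation p = 9e-05, adjusted p = 0.00162; 0.588 without the 2 mice farthest from the median of the sum), and its Spearman's rho of 0.640 (permutation p = 0.00357) missed it (adjusted p = 0.0643). With values centred on the strain and housing groups, 5 relations passed by each measure: Drd1, Drd2, Adora2a and Rgs9 in posterior libraries (r of 0.673, 0.744, 0.734 and 0.741) and Drd5 in anterior ones (r of 0.681). Without Ano3 and Rxrg, an alternative chosen after seeing the data, Drd2 gave an r of 0.879 in anterior libraries (permutation p = 2e-05, adjusted p = 0.00036, rho 0.885; r of 0.832 without the 2 farthest mice) and 0.742 in posterior ones (permutation p = 0.00022, adjusted p = 0.00198, rho 0.712). Adora2a gave 0.698 and 0.622 (adjusted p = 0.0162 and 0.0198), and Rgs9 0.57 in posterior libraries (adjusted p = 0.0405). Drd1 gave -0.0586 and 0.0560, and Pde10a 0.451 and 0.155, none of which passed. So Drd2 and Adora2a varied with the striatal genes in both portions under this list by Pearson's r, while a relation for Drd1 was found in posterior libraries under group centring and not under the other settings. As a description without a test, the rho of Drd1 with the summed intercalated cell markers was 0.846 in posterior and 0.0353 in anterior libraries. Most of that sum is Penk. With the 15 striatal genes the rho of Drd1 was 0.333 and 0.0912.

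Among the libraries high in Adora2a, the ratio to Drd2 was not constant. In the 24 libraries with both genes at 1 CPM or more, Adora2a over Drd2 ran from 0.632 to 29.0. It was 3.17 in the anterior library of C57BL/6J enriched mouse 1, where 11 of 15 striatal genes exceeded 2 times their median. In the 4 posterior libraries with at least 143 CPM of Adora2a it was 29.0 (C57BL/6J standard mouse 3), 24.2 (C57BL/6J enriched mouse 4), 12.3 (B6D2F1N standard mouse 4) and 21.5 (B6D2F1N standard mouse 5). In these 4 libraries 6, 6, 10 and 8 striatal genes exceeded 2 times their median. The summed list of intercalated cell markers was at 2387, 1673, 2661 and 2168 CPM against a median of 657 CPM. Penk made up most of that sum (mean 768 CPM over all libraries, the next gene being Meis2 at 58.0 CPM). Whether the sum tells intercalated cells from striatal neurons was not tested. The posterior library of B6D2F1N enriched mouse 4, with the highest intercalated sum, had a ratio of 0.632 on 9.67 CPM of Drd2 and 6.11 CPM of Adora2a. High Adora2a therefore occurred with different proportions of Drd2 and of striatal genes, and which cells carried it was not tested.

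Over all 35 libraries the genes with the most similar pattern were ranked by Spearman's rho among 16021 genes, which is a description over libraries that share mice and dissection. For Drd1 they were Lrrk2 (0.784), Htr1f (0.750) and Rgs9 (0.691), for Rgs9 Six3 (0.716), Drd1 (0.691) and Htr1d (0.645), and those given for Adora2a are Drd2 (0.670) and Tmod1 (0.626). For Drd2 they were Cacna2d2 (0.738), Cnot6 (0.738) and Dgkk (0.695). Drd5 had Gjb1 (0.730), Gpd1 (0.714) and Tmbim1 (0.707); Gjb1 encodes a connexin of myelinating cells, and the rho of Drd5 with the summed oligodendrocyte markers was 0.598 (0.486 over anterior and 0.620 over posterior libraries). The nearest genes of Pde10a were Dnajb14 (0.608), Gm44151 (0.596) and Gm44831 (0.587), those of Th B630019K06Rik (0.697), Rps27rt (0.664) and Flywch2 (0.653), and those of Slc6a3 Cyp26a1 (0.769), Gfra1 (0.724) and Gjb6 (0.719). Between members within a portion, Drd2 and Adora2a had a rho of 0.832 in anterior and 0.737 in posterior libraries, Drd1 and Rgs9 0.709 and 0.705, and Drd1 and Drd5 -0.571 in posterior libraries.

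The wider dopamine pathway was read from a list of 25 genes that were found in the files, none of them a member. Between the portions, 24 of the 25 were tested in each strain. In C57BL/6J mice, none rose and 2 fell in the posterior libraries by edgeR. They were Rgs8 (-1.28, SE 0.25, adjusted p = 0.00496), which acts on G proteins as Rgs9 does, and Rgs7bp (-0.68, SE 0.14, adjusted p = 0.00978). The list had a median log2 fold change of -0.32, beside 0.01 over all genes. In B6D2F1N mice, Gng7, a G protein subunit of striatal neurons, rose (1.03, SE 0.22, adjusted p = 0.0112) and Adora1, the A1 adenosine receptor gene, fell (-0.88, SE 0.24, adjusted p = 0.0441), with a list median of -0.23 beside 0.15. No gene of the list was called in any strain or housing comparison. The 3 genes of the list with the highest level were Ncs1, Arpp21 and Rgs4, with means of 1009, 419 and 278 CPM. Ppp1r1b, which encodes the dopamine and cyclic AMP-regulated inhibitor DARPP-32, ranged from 7.61 to 149 CPM with its highest value in the posterior library of B6D2F1N standard mouse 4, where Adcy5 (190 CPM), Gng7 (124 CPM) and Pde7b (26.3 CPM) also peaked and where Drd2 and Adora2a were highest.

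Of the striatal list, Scn4b, a sodium channel subunit gene (-4.46, SE 0.77, adjusted p = 0.00200), and Rxrg (-0.70, SE 0.16, adjusted p = 0.0147) fell in posterior libraries of C57BL/6J mice, and none of 15 was called in B6D2F1N mice. Scn4b was also higher in B6D2F1N than in C57BL/6J standard anterior libraries (44.9 and 8.50 CPM, 2.39, SE 0.35, adjusted p = 0.00287). Of the other lists, 4 of 6 excitatory genes (Tbr1, Neurod6, Rspo2 and Slc17a7) fell in posterior libraries of each strain, Rspo2 the most (-2.59, SE 0.21, adjusted p = 1.112e-06 in C57BL/6J mice), and Gfap rose in each (1.38, SE 0.23, adjusted p = 0.00152, and 1.93, SE 0.40, adjusted p = 0.00873). Cyp26b1 fell in each strain, while Nts rose in C57BL/6J and Ecel1 in B6D2F1N mice, all of the central amygdala list. Gja1 rose and Aldh1a1 fell in C57BL/6J mice. No gene of the noradrenergic, intercalated, inhibitory or hypothalamic list was called between the portions, and in the strain and housing comparisons Scn4b and Mbp were the 2 calls among all lists. The lists, as the members, describe what each library held, and no test here assigns a member's signal to a cell type.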

How the data were processed

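RNA was measured by RNA-seq (NEBNext low-input mRNA kit, 72-base single reads) in 35 libraries of laser-captured mouse amygdala. Per the labels and the submitters' processing notes, the authors trimmed reads (Trimmomatic 0.38, with FastQC 0.11.7), aligned them to GRCm38 (HISAT2 2.1.0, SAMtools 1.8) and counted them per Ensembl gene (HTSeq 0.11.2). The deposited values are raw counts, 1 table per library; annotation release and strand setting are not given in the sources used here. Totals were 16938534 to 27352623 counts, and 3 counts is the floor used for values at 0.

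Groups came from the labels (strain, housing, portion). Members, gene lists and named-gene rules were chosen with earlier results of these data known; the members are described in full, and genes of the lists are named where they passed, where they peaked in a library, or for their level. Counts were tested with edgeR 4.0.16 in R 4.3.3 (TMM factors, genes with at least 10 counts in the fit, quasi-likelihood F test, Benjamini-Hochberg adjustment, threshold 0.05). Portions were compared with the mouse as a block, since both portions came from the same animal. After group means were subtracted, the 2 portions of a mouse had a median r of 0.0481 over 16 mice (-0.105 to 0.222), and portions of different mice -0.0168. Strain and housing were compared within portion without a block, because a mouse is in 1 group. Mice are separate animals. Standard errors are the size of the log2 fold change over the root of F. CPM values use TMM library sizes over all 35 libraries. Correlations used 100000 permutations, two-sided. DESeq2 1.42.0, other scalings and filters and leaving out each mouse were alternatives. The scripts were tested on simulated data. No 2 libraries of 595 pairs held identical counts. Gene models are GENCODE on GRCm38, and promoters RefSeq on GRCm38.p6. Values of 1 gene are not reported here.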

Additional observations from a re-analysis of the deposited data

Results flagged for a closer look

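Groups of a gene with 4 to 6 libraries were tested. In 20 of the 55 groups, a library lay farther from the others than Dixon's 95% value allows. Chance gives about 1 in 20 only where values are normally distributed. The values used were untransformed CPM, skewed toward high values for several genes, and each flagged value was the highest of its group. Whether 20 of 55 exceeds chance was therefore not tested. Several of the values come from the same library.

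For Adora2a the libraries were the posterior ones of C57BL/6J standard mouse 3 (143 CPM), C57BL/6J enriched mouse 4 (195 CPM) and B6D2F1N enriched mouse 1 (57.5 CPM), and the anterior one of B6D2F1N standard mouse 1 (65.6 CPM). For Drd2 they were the posterior libraries of C57BL/6J standard mouse 3 (4.91 CPM), B6D2F1N standard mouse 4 (38.4 CPM) and B6D2F1N enriched mouse 4 (9.67 CPM). For Rgs9 they were the anterior library of B6D2F1N standard mouse 3 (26.8 CPM) and the posterior libraries of C57BL/6J enriched mouse 4 (25.4 CPM) and B6D2F1N enriched mouse 4 (19.1 CPM).

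For Th they were the anterior libraries of C57BL/6J standard mouse 1 (2.21 CPM) and B6D2F1N standard mouse 3 (26.7 CPM) and the posterior libraries of C57BL/6J enriched mouse 2 (38.5 CPM) and B6D2F1N standard mouse 2 (3.35 CPM). For Slc6a3 they were the anterior library of C57BL/6J standard mouse 2 (1.96 CPM) and the posterior library of C57BL/6J enriched mouse 2 (101 CPM). For Drd3 they were the anterior library of B6D2F1N standard mouse 1 (2.33 CPM) and the posterior libraries of C57BL/6J enriched mouse 4 (2.80 CPM) and B6D2F1N enriched mouse 5 (1.18 CPM). For Drd5 it was the anterior library of B6D2F1N enriched mouse 1 (6.23 CPM), which also had the highest summed oligodendrocyte markers (30479 CPM). The part of neighbouring tissue in these values was not tested.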

How the results depend on the processing

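The number of members called between the portions of C57BL/6J mice was 1 and became 0 with edgeR's expression filter, without the mouse as a block in the paired fit (0 called), and without the mice of the 3 libraries with raised markers of other tissues, an alternative chosen after seeing the data; with each mouse left out it was 0 to 1. In B6D2F1N mice it was 0 with and without the block. The number called was 1 with DESeq2 between the strains in standard anterior libraries (Drd5) and 0 to 1 in enriched posterior libraries with each mouse left out (Slc6a3, without C57BL/6J enriched mouse 3, adjusted p = 0.0428). For housing it was 3 with no filter on counts in C57BL/6J anterior libraries (Drd2, Adora2a and Rgs9). In C57BL/6J posterior libraries it was 1 with no filter (Slc6a3), 1 with DESeq2 (Drd5) and 0 to 1 with each mouse left out (Slc6a3, without enriched mouse 3, adjusted p = 0.040). All other counts of members called stayed at their value. Relations with the striatal list past the threshold went from 1 to 5 by Pearson's r, and from 0 to 5 by Spearman's rho, with centring on groups, and to 5 and 3 without Ano3 and Rxrg, chosen after seeing the data. Th between the strains in enriched posterior libraries (-3.46 to 0.282 with each mouse left out) reversed to 0.282 without C57BL/6J enriched mouse 2, and Adora2a between housings in C57BL/6J anterior libraries (-0.368 to 2.58) to -0.368 without enriched mouse 1; these mice hold 2 of those libraries. The causes of the other shifts were not tested.

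Genes called in all differed by more than 1.5 times between settings: from 937 to 1535 with DESeq2 and 602 or 606 without C57BL/6J standard mouse 4 or 1 (portion, C57BL/6J), 1112 to 1994 with DESeq2 (portion, B6D2F1N), 90 to 254, 94 to 392, 15 to 137 and 101 to 342 with DESeq2 for the strains in standard anterior, standard posterior, enriched anterior and enriched posterior libraries, 94 to between 59 and 61 without C57BL/6J standard mouse 4 or 2 or B6D2F1N standard mouse 3 and to 166 without B6D2F1N standard mouse 1 (standard posterior), and 15 to 1 or 6 without C57BL/6J enriched mouse 1 or 3, to 57 with no filter and to 44 in 1 fit of 4 groups (enriched anterior). For housing they went in C57BL/6J posterior libraries from 4 to 319 with DESeq2, 112 with no filter, 172 without enriched mouse 3 and 0 in 1 fit of 4 groups or without any 1 of the other mice, and in C57BL/6J anterior libraries from 0 to 274 with no filter and 100 with DESeq2. In B6D2F1N mice they went from 0 to 8 (anterior) and 13 (posterior) with DESeq2 and to 10 without standard mouse 1 (posterior), and the interaction of portion and strain from 0 to 2 with no filter. Depth limits Drd3, Slc6a3 and Th, which were at 0 counts in 18, 17 and 7 of 35 libraries, and C57BL/6J enriched anterior libraries numbered 2.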
